A study of Mus musculus with 16 samples.

Results

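The clade B serpins considered here were 8 genes, *Serpinb2*, *Serpinb3a*, *Serpinb3b*, *Serpinb3c*, *Serpinb3d*, *Serpinb5*, *Serpinb6c* and *Serpinb12*, chosen by name and found by their Ensembl identifiers in the mouse GENCODE annotation. They were 8 of the 28 protein-coding clade B serpins and of the 55359 genes in the count tables. RNA had been sequenced from whole dorsal skin of wildtype C57Bl/6 mice, 8 weeks old, to ask how the response to ultraviolet B (UVB) differs between males and females. The study describes resting (telogen) hair follicles for its melanocyte migration experiments. Of the 16 mice, 4 males and 4 females were exposed to UVB 3 times and sampled on day 5, which was 6 h after the final exposure. The other 4 males and 4 females were no-UVB controls. The study names the mice as C57Bl/6N, and the labels give no transgene or deleted gene in any group.

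Serpins are protease inhibitors that offer an exposed reactive loop as bait. A protease that cleaves the loop is trapped in a covalent complex, and the serpin is used up. Clade B members lack a classical secretion signal and act largely inside cells, and several of them are abundant in the keratinocytes of stratified epithelia. *Serpinb2* encodes plasminogen activator inhibitor 2, an inhibitor of urokinase that also takes part in the building of the cornified envelope. The *Serpinb3* genes are the mouse counterparts of the human squamous cell carcinoma antigens, which inhibit cysteine cathepsins and chymotrypsin-like serine proteases. *Serpinb5* encodes maspin, which has a serpin fold but is not a classical inhibitor of proteases. *Serpinb12* encodes an inhibitor of trypsin-like serine proteases, and *Serpinb6c* is one of several mouse copies related to the human intracellular inhibitor SERPINB6.

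On GRCm39, 7 members lay in 1 cluster on chromosome 1, in the order *Serpinb5* (chr1:106788875-106811078, plus strand), *Serpinb12* (chr1:106859355-106884814, plus), *Serpinb3a* (chr1:106973317-106980033, minus), *Serpinb3d* (chr1:107005897-107011236, minus), *Serpinb3b* (chr1:107081670-107206101, minus), *Serpinb3c* (chr1:107198930-107206101, minus) and *Serpinb2* (chr1:107428593-107463208, plus). *Serpinb6c* lay in the second cluster (chr13:34061197-34089714, minus). The 4 *Serpinb3* genes were close copies of each other. The coding sequence of *Serpinb3a* was identical to that of *Serpinb3b* at 93.0% of aligned bases, to *Serpinb3c* at 91.5% and to *Serpinb3d* at 89.2%, against 63.0% for *Serpinb12*.

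The stretch that codes for the reactive loop, from the conserved hinge to the conserved codons after the loop, is shown for the 4 copies because it is the part that sets which protease is trapped, with capitals marking bases that differ from *Serpinb3a*. It spans coding bases 1006 to 1098, or 1006 to 1095 in *Serpinb3c*, which is shorter and for which no bases are marked.
Serpinb3a: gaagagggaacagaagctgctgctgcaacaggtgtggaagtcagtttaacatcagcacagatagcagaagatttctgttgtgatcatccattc
Serpinb3b: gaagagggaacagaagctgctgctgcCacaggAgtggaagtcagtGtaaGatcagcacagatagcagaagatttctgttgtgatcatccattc
Serpinb3d: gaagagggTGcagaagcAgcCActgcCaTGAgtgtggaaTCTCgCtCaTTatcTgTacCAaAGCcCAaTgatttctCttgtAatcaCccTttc
Serpinb3c: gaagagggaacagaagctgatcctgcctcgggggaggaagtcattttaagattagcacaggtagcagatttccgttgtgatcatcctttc
*Serpinb3b* differed from *Serpinb3a* at 4 of the 93 bases and *Serpinb3d* at 31. Of all windows of 100 bases in the *Serpinb3a* transcript, 6.57% recurred elsewhere, in the pseudogene *Gm8080*, and *Serpinb3b* and *Serpinb3c* shared 0.515% and 0.512% of their windows with each other. No window of the transcripts taken for *Serpinb2*, *Serpinb3d*, *Serpinb5*, *Serpinb6c* and *Serpinb12* recurred in the transcript of another gene, although 5.23% of the windows of *Serpinb10* lay in *Serpinb2*. In this annotation the gene model of *Serpinb3b* overlaps *Serpinb3c*, and that of *Serpinb2* overlaps *Serpinb10*, and with these models reads on the shared exons would be counted for neither.

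The promoters are shown for the 3 members called higher in males below, as the 250 bases before and 50 bases after the annotated start from RefSeq, each found at 1 place of GRCm39. Capitals mark matches, on either strand, to the AP-1 letters TGANTCA or the TATA box letters TATAAA. No marked match overlapped another.
Serpinb3a, chr1:106979984-106980283, minus strand: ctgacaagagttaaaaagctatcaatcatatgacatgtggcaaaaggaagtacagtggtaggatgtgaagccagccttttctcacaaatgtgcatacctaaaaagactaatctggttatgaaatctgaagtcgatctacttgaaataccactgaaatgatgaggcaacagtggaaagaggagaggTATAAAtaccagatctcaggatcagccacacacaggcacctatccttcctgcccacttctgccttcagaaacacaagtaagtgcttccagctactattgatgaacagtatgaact
Serpinb3b, chr1:107088795-107089094, minus strand: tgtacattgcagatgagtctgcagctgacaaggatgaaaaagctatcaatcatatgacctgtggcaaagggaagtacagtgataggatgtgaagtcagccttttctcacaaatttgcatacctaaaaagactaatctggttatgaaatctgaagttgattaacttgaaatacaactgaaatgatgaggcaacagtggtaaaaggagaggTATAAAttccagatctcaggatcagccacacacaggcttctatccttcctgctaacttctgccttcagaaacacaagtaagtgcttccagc
Serpinb12, first of its 2 starts, chr1:106861929-106862228, plus strand: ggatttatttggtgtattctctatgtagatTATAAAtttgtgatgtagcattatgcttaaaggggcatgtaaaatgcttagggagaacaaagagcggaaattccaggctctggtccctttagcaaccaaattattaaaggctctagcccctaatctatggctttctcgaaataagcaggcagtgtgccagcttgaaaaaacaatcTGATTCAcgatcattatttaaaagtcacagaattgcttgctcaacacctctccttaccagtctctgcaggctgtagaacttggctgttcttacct
The *Serpinb3a* and *Serpinb3b* windows were identical at 257 of 276 aligned bases, or 93.1%, and each held a TATA box match, as did 13.6% of 32851 windows of the same length. The *Serpinb3d* window, by contrast, aligned to that of *Serpinb3a* at 56.5% identity. The AP-1 letters were found in the windows of *Serpinb5* and *Serpinb2*, in that of the first start of *Serpinb12* but not of its second, and in 7.81% of all windows. The STAT letters TTCNNNGAA occurred in that of *Serpinb2* and in 8.3% of all windows. Neither the cyclic AMP response letters TGACGTCA nor an NF-kB motif occurred in a member's window, against 1.79% and 1.63% of all windows. These matches describe letters in a window and are no evidence of binding.

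Each library held 16495776 to 33404831 reads on genes, with a median of 21767339. Levels are given as CPM, read counts brought to a common library size with edgeR's TMM factors, and levels of different genes are compared only as CPM per kilobase of exon. *Xist* and 4 genes of the Y chromosome matched the labelled sex in all 16 mice. Keratinocyte, fibroblast, fat and muscle genes were all detected, as they should be in whole skin. Although the study describes resting follicles for its migration experiments, 2 male controls stood apart in genes of growing (anagen) hair. The summed level of 9 such genes was 23.0 and 17.2 CPM in no-UVB male replicates 1 and 2 and 90.1 and 133 in replicates 3 and 4, against 13.7 to 31.1 in the other 12 mice. Without these 2 mice, an alternative chosen after the data were seen, the same 3 members were called higher in males (1027 of 17083 genes), and the *Serpinb6c* interaction described below was -1.53 (edgeR adjusted p = 0.00249). In such tissue, more RNA of a gene per cell and more cells that hold it cannot be told apart.

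**Figure D1:**
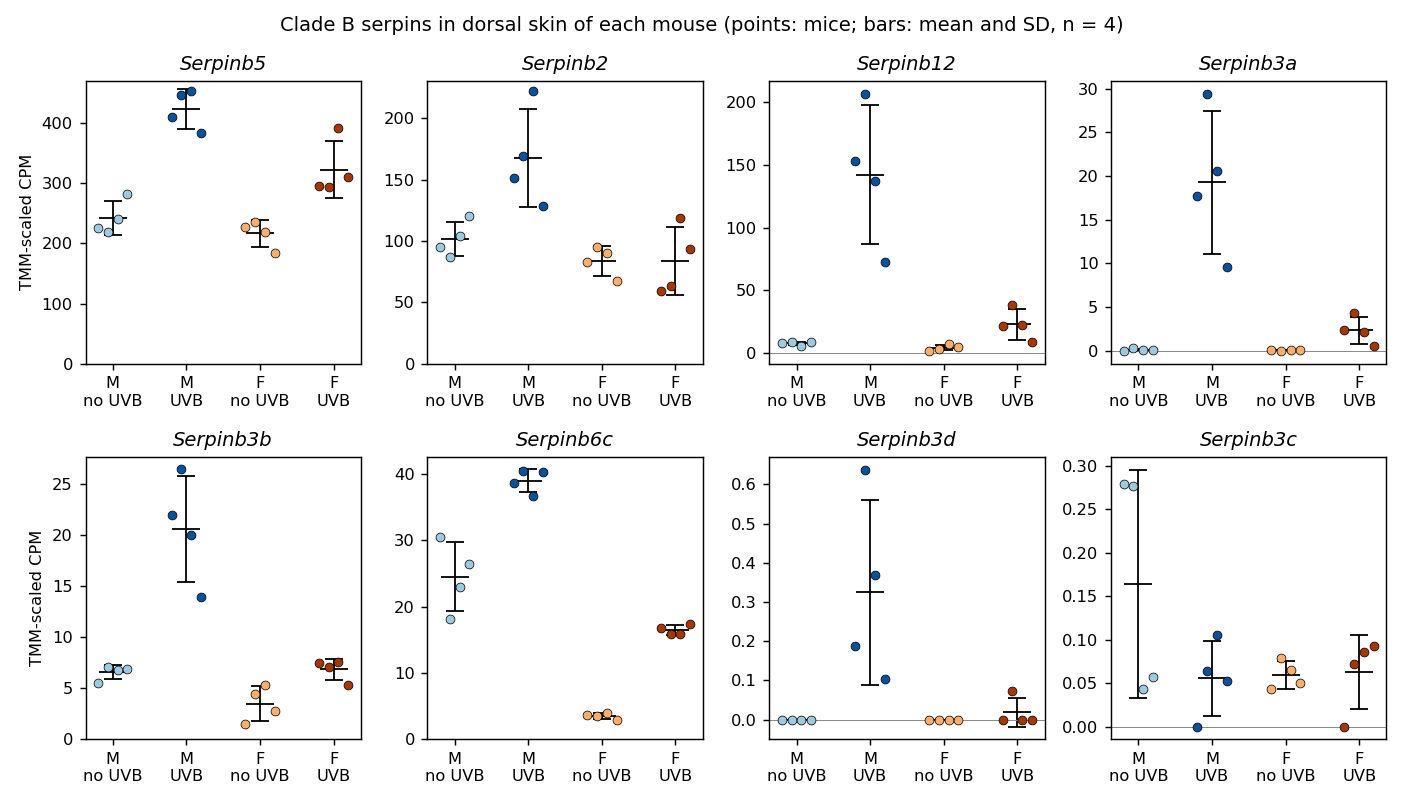
TMM-scaled CPM (vertical axes, each with its own range) of the 8 members in each of the 16 mice, as points, with the mean and SD of the 4 mice of each group (M, males; F, females). In males the UVB mice lie above the no-UVB mice for *Serpinb5*, *Serpinb2*, *Serpinb12*, *Serpinb3a*, *Serpinb3b* and *Serpinb6c*, and *Serpinb6c* is higher in males than in females both with and without UVB.

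In skin without UVB, the members differed widely in level, and the order was led by *Serpinb5* and *Serpinb2* in both sexes. Per length, *Serpinb5* stood at 87.0 CPM per kilobase in males and 77.9 in females, and *Serpinb2* at 35.8 and 29.6. Below them in males came *Serpinb6c* at 4.98, *Serpinb3b* at 3.89 and *Serpinb12* at 3.01 CPM per kilobase, which overlapped each other in turn. In females *Serpinb3b* at 2.07 and *Serpinb12* at 1.71 overlapped, as did *Serpinb12* and *Serpinb6c* at 0.718. *Serpinb3a* and *Serpinb3c* averaged 0.0665 and 0.0988 CPM per kilobase in males and less in females, and *Serpinb3d* had no read in any of the 8 no-UVB mice.

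UVB changed this order mainly through *Serpinb12* and *Serpinb3a*. In UVB males *Serpinb12*, at 54.7 CPM per kilobase, came within the range of *Serpinb2* at 59.1, and *Serpinb3a*, at 11.8, within that of *Serpinb3b* at 12.1. In UVB females *Serpinb12* reached 8.81 CPM per kilobase and overlapped *Serpinb3b* at 4.05, whereas *Serpinb3a* stayed lower, at 1.44. *Serpinb5* remained the highest member in all 4 groups, with no overlap with the next.

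The test was the quasi-likelihood test of edgeR, with p-values adjusted by Benjamini and Hochberg over all genes that passed a filter on low counts. A gene is said to have risen or fallen at an adjusted p under 0.1, and to have been called if its log2 fold change was also past 1. The study used the same numbers with DESeq2 and fold changes shrunk by apeglm, which are an alternative here. Of the 8 members, 6 passed the filter, and *Serpinb3c* and *Serpinb3d* did not. *Serpinb3a* passed only through the UVB mice, so it could be tested only if it differed, and its place in the counts that follow is a description. In males 3 members were called higher (*Serpinb3a*, *Serpinb3b* and *Serpinb12*), where 4.08% of all genes tested were. In females 3 were called higher (*Serpinb3a*, *Serpinb6c* and *Serpinb12*), against 1.63% of all genes. None was called lower in either sex by edgeR, where 3.31% of all genes were in males and 1.08% in females, or by DESeq2's Wald test, and 0 members had a negative change at an unadjusted p under 0.05. Without the threshold on the fold, 6 rose in males and 5 in females, against 29.0% and 12.8% of all genes. In males the UVB and no-UVB mice did not overlap for 6 members, all higher, against 22.9% of genes with no overlap that were higher and 24.3% that were lower. In females they did not overlap for 5, against 11.1% of genes that were higher.

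*Serpinb3a*, nearly silent without UVB, showed the largest change among the members. The no-UVB males had 0, 6, 1 and 2 reads in replicates 1 to 4, and the UVB males had 570, 461, 389 and 183. In CPM the UVB males stood at 17.7, 29.4, 20.5 and 9.53. The UVB females had 46, 119, 51 and 12 reads, or 2.37, 4.29, 2.18 and 0.557 CPM, and the no-UVB females 1, 0, 3 and 1 reads. Every UVB mouse lay above every control of its sex, and every UVB male above every UVB female. The log2 fold change was 7.43 (SE 0.605, edgeR adjusted p = 2.3e-05) in males and 5.43 (SE 0.791, adjusted p = 0.00219) in females. As the gene entered the test only through the UVB mice and few reads lay under the controls, these fits are a description, and the ratio of the pooled levels is given with its exact 95% counting interval, which covers counting error only. It was 174 (91.2 to 380.0) in males and 48.9 (20.7 to 152) in females.

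*Serpinb12*, the neighbour of *Serpinb5* on chromosome 1, rose from a low level in both sexes, and in males to one of the highest among the members. The no-UVB males stood at 7.92, 8.60, 5.80 and 8.99 CPM and the UVB males at 153, 207, 137 and 72.7. The no-UVB females stood at 1.90, 3.76, 6.999 and 5.10 CPM and the UVB females at 22.1, 38.5, 22.1 and 8.92. The groups did not overlap in either sex, although the lowest UVB female was close to the highest female control. The mean rose from 7.83 ± 1.42 to 142 ± 55.1 CPM (SD, n = 4) in males and from 4.44 ± 2.15 to 22.9 ± 12.1 CPM in females. The log2 fold change was 4.21 (SE 0.355, edgeR adjusted p = 6.54e-05) in males and 2.37 (SE 0.459, adjusted p = 0.00856) in females.

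*Serpinb3b*, unlike its near copy *Serpinb3a*, was already present without UVB. It stood at 5.54, 7.13, 6.84 and 6.93 CPM in the no-UVB males and at 21.99, 26.5, 19.99 and 14.0 in the UVB males. In females it stood at 1.56, 4.43, 5.30 and 2.78 CPM without UVB and at 7.51, 7.10, 7.58 and 5.34 after it. The male groups were well separated, and the lowest UVB female lay just above the highest female control. The log2 fold change was 1.66 (SE 0.179, edgeR adjusted p = 3.98e-05) in males. In females it was 0.96 (SE 0.31, adjusted p = 0.066), a rise short of the threshold on the fold.

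The other 2 copies were at or near the limit of detection. *Serpinb3d* had 6, 10, 7 and 2 reads in the UVB males, 2 reads in 1 UVB female and 0 in the other 11 mice. Over the group, the UVB males were at least 8.12-fold higher than the no-UVB males, taking 3 reads over the 4 controls as the level that a count of 0 allows. Their pooled level was 13.4 times that of the UVB females, with a counting interval of 3.34 to 117. *Serpinb3c* had at most 6 reads in any mouse, with 14 over the no-UVB males, 4 over the UVB males and 6 over each female group. Of the 14 reads, 12 came from 2 mice, replicates 1 and 2. The pooled ratio of UVB to no-UVB males was 0.278 (0.0667 to 0.886) for *Serpinb3c*, an interval that leaves out the spread between mice.

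*Serpinb5* and *Serpinb2*, the abundant members, changed by less than 1 on the log2 scale. *Serpinb5* stood at 226, 220, 240 and 282 CPM in the no-UVB males and at 410, 446, 454 and 383 in the UVB males. In females it stood at 227, 236, 219 and 184 CPM without UVB and at 295, 294, 392 and 310 after it. All UVB mice lay above the controls of their sex, and the female with 392 CPM stood apart from the other 3. The log2 fold change was 0.83 (SE 0.0894, edgeR adjusted p = 2.48e-05) in males and 0.58 (SE 0.117, adjusted p = 0.00854) in females. The mean rose from 242 ± 28.0 to 423 ± 32.8 (SD, n = 4) in males and from 216 ± 22.7 to 323 ± 46.6 in females.

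*Serpinb2*, the urokinase inhibitor, rose in males and did not pass the test in females. The no-UVB males stood at 94.98, 87.1, 104 and 120 CPM and the UVB males at 151, 169, 222 and 128, with no overlap. The no-UVB females stood at 82.7, 95.3, 90.4 and 67.5 CPM and the UVB females at 59.5, 62.9, 118 and 93.0. In females the UVB mice were split, with replicates 1 and 2 below all the controls, replicate 3 above them and replicate 4 among them. The log2 fold change was 0.75 (SE 0.169, edgeR adjusted p = 0.00555) in males and 0.00 (SE 0.21, adjusted p = 0.996) in females. The difference between the sexes in this response, 0.73 on the log2 scale (SE 0.294), had an adjusted p of 0.171 in edgeR's interaction test.

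*Serpinb6c* was the member whose response differed between the sexes by that test. The no-UVB males stood at 30.5, 18.2, 23.0 and 26.4 CPM and the UVB males at 38.6, 40.4, 36.7 and 40.2. The no-UVB females stood at 3.68, 3.56, 3.96 and 2.93 CPM and the UVB females at 16.8, 15.8, 15.9 and 17.4. No pair of these 4 groups overlapped, and even the irradiated females remained below the lowest male control. The log2 fold change was 0.69 (SE 0.128, edgeR adjusted p = 0.00116) in males and 2.22 (SE 0.109, adjusted p = 1.47e-05) in females. The response was smaller in males by 1.54 on the log2 scale, with a log2 difference of -1.54 (SE 0.176, adjusted p = 0.000988). The means went from 24.5 ± 5.18 to 39.0 ± 1.72 (SD, n = 4) in males and from 3.53 ± 0.436 to 16.5 ± 0.753 in females.

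**Figure D2:**
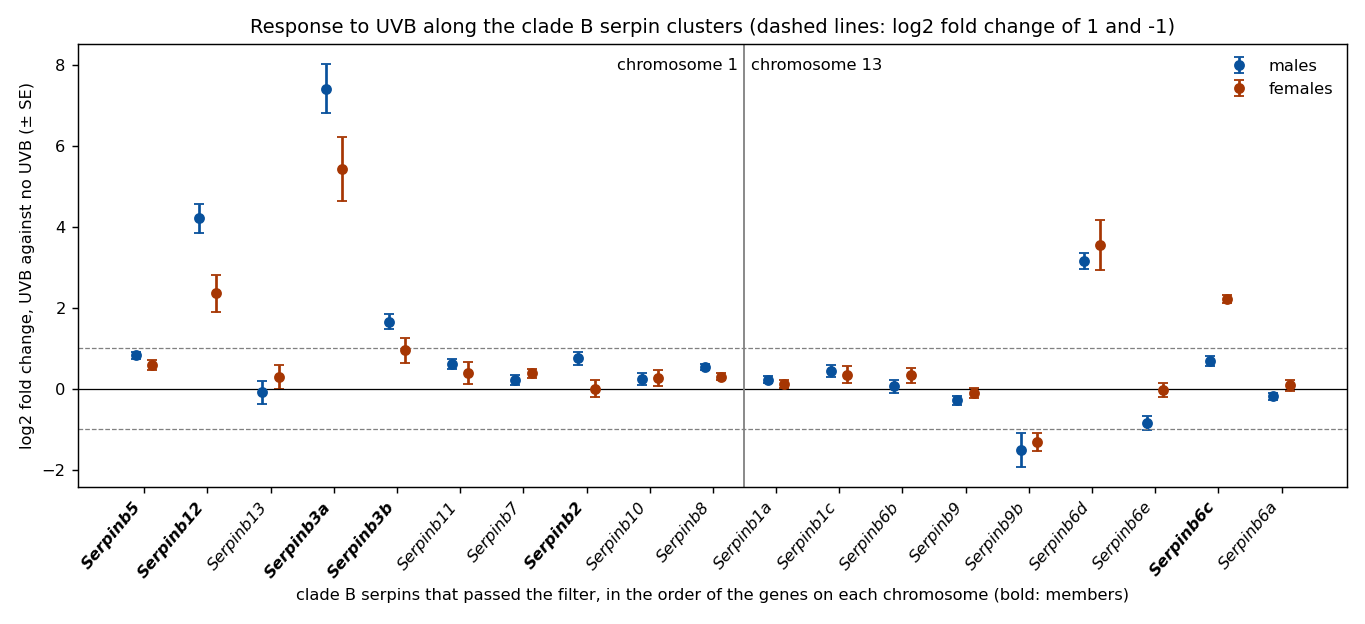
Log2 fold change after UVB with its SE (vertical axis) for the 19 clade B serpins tested, 6 of them members in bold, in gene order on chromosomes 1 and 13, for males and females. *Serpinb3a* and *Serpinb12* stand out on chromosome 1, with 7.43 and 4.21 in males, and *Serpinb6d* and *Serpinb6c* on chromosome 13.

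In the interaction test over all 16 mice, 1 of the 6 members tested was called lower in males (*Serpinb6c*), where 4.25% of all genes were, and 0 were called higher, where 2.75% were. At an unadjusted p under 0.05, 2 members had a larger response in males, *Serpinb2* and *Serpinb12*, and DESeq2's Wald test called both, along with 1102 of 17406 genes in that direction. For *Serpinb12* the difference was 1.83 on the log2 scale (SE 0.61, edgeR adjusted p = 0.112), and for *Serpinb3a* it was 1.99 (SE 2.02, adjusted p = 0.613). The controls of *Serpinb3a* held only 9 reads over the males and 5 over the females.

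Compared directly, males exceeded females in all 6 members tested after UVB, against 12.8% of all genes tested. The log2 difference was 3.00 for *Serpinb3a* (SE 0.428, edgeR adjusted p = 0.000608), 2.63 for *Serpinb12* (SE 0.401, adjusted p = 0.00104) and 1.58 for *Serpinb3b* (SE 0.256, adjusted p = 0.00127). It was 1.24 for *Serpinb6c* (SE 0.118, adjusted p = 1.09e-05), 1.01 for *Serpinb2* (SE 0.209, adjusted p = 0.00605) and 0.39 for *Serpinb5* (SE 0.108, adjusted p = 0.0209). The UVB males and UVB females did not overlap for 5 of the 6, all but *Serpinb5*, where 11.5% of genes were higher in males without overlap and 9.76% lower. Cell markers also differed between these 2 groups, and their part in the members' differences was not tested. Of the marker lists taken up below, 7 of 10 epidermal identity genes, 7 of 10 suprabasal genes, 3 of 4 stress keratins, 4 of 6 neutrophil markers tested and 3 of 6 fibroblast markers were higher in UVB males. Of the neutrophil markers, *Mmp8* stood at 1.58 to 2.42 CPM in UVB males and at most 0.468 in UVB females. It passed the filter through the UVB males, so its part in this comparison is a description. Lower in UVB males were 6 of 6 adipocyte, 5 of 7 T cell, 4 of 6 mast cell, 2 of 6 skeletal muscle, 1 of 8 macrophage and 1 of 5 endothelial markers.

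Without UVB, 2 members were higher in males, *Serpinb6c* by 2.78 on the log2 scale (SE 0.134, edgeR adjusted p = 4.32e-10) and *Serpinb3b* by 0.88 (SE 0.278, adjusted p = 0.0671), against 7.21% of all genes. No member was lower in males by edgeR, at an unadjusted p under 0.05 or by DESeq2's Wald test, against 4.58% of all genes by edgeR. Both had no overlap between the sexes, as had 7.82% of genes in that direction and 5.16% in the other. The call for *Serpinb3b* was lost when any of 5 mice was dropped from the fit: no-UVB female replicate 1 or 4, or no-UVB male replicate 2, 3 or 4. The estimate in these 5 fits was 0.64 to 0.87 with adjusted p-values of 0.107 to 0.151. Cell markers differed here as well, and their part was not tested. Without UVB, 4 of 6 fibroblast, 4 of 6 skeletal muscle and 1 of 5 anagen hair markers tested were higher in males, and 3 of 7 T cell, 2 of 6 mast cell and 1 of 5 endothelial markers were lower. No marker of the epidermal, suprabasal, stress keratin, macrophage, neutrophil or adipocyte lists passed edgeR's test in that comparison, and 0 had an unadjusted p under 0.05.

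The mean level of epidermal genes was higher in every UVB male than in any other mouse. The mean log2 CPM of 10 epidermal identity genes, such as *Krt5*, *Krt14* and *Trp63*, was 8.74 ± 0.144 (SD, n = 4) in male controls and 9.19 ± 0.0875 in irradiated males. In females it was 8.68 ± 0.226 and 8.66 ± 0.332. Their summed level was 6060 to 9160 CPM in no-UVB males and 10100 to 13700 in UVB males, against 5250 to 7640 and 5460 to 8390 in females. In males 6 of these 10 genes rose and 0 fell, with *Krt14* called at 1.44, and in females 1 rose. With the libraries scaled to these genes, the median log2 change of all genes was -0.50 in males, where it had been -0.02, and 0.04 in females. The median difference of all genes between UVB males and UVB females became -0.56.

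Read against these epidermal genes, the same 3 members were called in males, at log2 fold changes of 6.95 for *Serpinb3a*, 3.70 for *Serpinb12* and 1.17 for *Serpinb3b*, where 332 of 16535 genes were called higher and 2485 lower. *Serpinb5* rose by 0.35 (edgeR adjusted p = 0.0125), *Serpinb2* by 0.26 (adjusted p = 0.0861) and *Serpinb6c* had 0.22 (adjusted p = 0.13). In females *Serpinb12* had nearly the same fold, 2.50, but an adjusted p of 0.192. The excess of UVB males over UVB females was smaller under this scaling, at 2.33 for *Serpinb3a*, 1.94 for *Serpinb12*, 1.001 for *Serpinb3b*, 0.69 for *Serpinb6c* and 0.51 for *Serpinb2*. These 5 members passed edgeR's test (adjusted p-values of 0.00355 to 0.01002), where 187 of 17406 genes were called higher in males and 13235 lower. For *Serpinb5* the difference became -0.15 (adjusted p = 0.377). The *Serpinb6c* interaction became -2.05 (adjusted p = 0.000274), where the median of all genes was -0.52 and 4963 of 17406 genes were called lower.

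Other marker lists moved too, and their part in the members' changes was not tested. Of 10 suprabasal genes, which mark differentiating keratinocytes, 10 rose in males and 8 in females, led in males by *Flg* at 3.86, *Krt1* at 3.13, *Ivl* at 2.13 and *Dsc1* at 1.65 on the log2 scale. Of 4 stress keratins, 3 were called higher in each sex, with *Krt6b* at 8.72, *Krt16* at 6.11 and *Krt6a* at 3.63 in males and at 4.85, 2.97 and 1.14 in females. Summed neutrophil markers reached 54.1 to 161 CPM in UVB males, from 10.1 to 15.7, and 19.6 to 30.0 in UVB females, from 10.4 to 16.3. Of the 8 neutrophil markers 6 were tested in males and 4 were called higher, *S100a9* at 4.55 and *S100a8* at 3.67, which keratinocytes also express, *Cxcr2* at 3.63 and *Mmp8* at 2.70. *Cxcr2* and *Mmp8* had few reads in the male controls, 39 and 25 over the 4 mice, and passed the filter through the UVB males, so their calls are a description. Summed fibroblast markers were at 79000 to 86200 CPM in no-UVB males and 28400 to 39300 in UVB males, and at 19200 to 20500 and 12100 to 21800 in females. Of these 6 markers 2 were called in males, the collagen genes *Col1a1* at -1.66 and *Col1a2* at -1.57. Of 8 macrophage markers, 4 fell in males and 1 in females, and none was called. In males 7 of 7 T cell, 4 of 6 adipocyte and 6 of 6 skeletal muscle markers fell, and in females 3 of the T cell markers did. Called among them in males were *Trac* at -1.13, *Actn3* at -1.18 and *Myh4* at -1.09. Of 6 mast cell markers 2 rose and 2 fell in males and 3 rose in females, with *Fcer1a* called at 1.05 in males. *Fcer1a* had 55 reads over the male controls, not all of which reached the filter, so its call is a description. Of 9 anagen hair genes 3 were tested, of which 1 rose and 2 fell in males and 1 rose in females. Of these *Tchh* was called in males at -1.25 (adjusted p = 0.0854), with 47.8 and 60.2 CPM in no-UVB male replicates 3 and 4 and 11.9 to 17.3 in the other 6 males. *Krt71*, chosen after its values were seen, was at 21.1 and 39.8 CPM in the same 2 mice and at 0.124 to 0.319 in the other 6. None of 5 endothelial markers passed edgeR's test in either sex, and 0 had an unadjusted p under 0.05.

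Across mice, *Serpinb2* went with *Serpinb5*, and *Serpinb12* with *Serpinb3a* and *Serpinb3b*. With the 4 group means taken out, *Serpinb2* and *Serpinb5* had a Pearson r of 0.868 over the 16 mice in log2 CPM. Both also followed the epidermal score within groups, with r of 0.77 for *Serpinb2* and 0.688 for *Serpinb5*. *Serpinb3a* and *Serpinb12* did not, with r of -0.454 and -0.408. They followed each other, with r of 0.749 over the 16 mice and 0.984 over the 8 UVB mice alone, group means removed. In both sexes replicate 2 held the highest and replicate 4 the lowest level of *Serpinb3a* and *Serpinb12* among the UVB mice. *Serpinb3b* and *Serpinb12* had r of 0.74 over the 16 mice, about as high as for *Serpinb3a*, and 0.843 over the 8. *Serpinb3a* and *Serpinb3b* had r of 0.418 over the 16 mice and 0.796 over the 8. *Serpinb6c* went closely with none of them, with r of 0.18 to *Serpinb2*, 0.269 to *Serpinb5*, -0.461 to *Serpinb3a*, -0.0445 to *Serpinb3b* and -0.117 to *Serpinb12* over the 16 mice. These values describe mice that share library depth and tissue make-up, and carry no test.

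**Figure D3:**
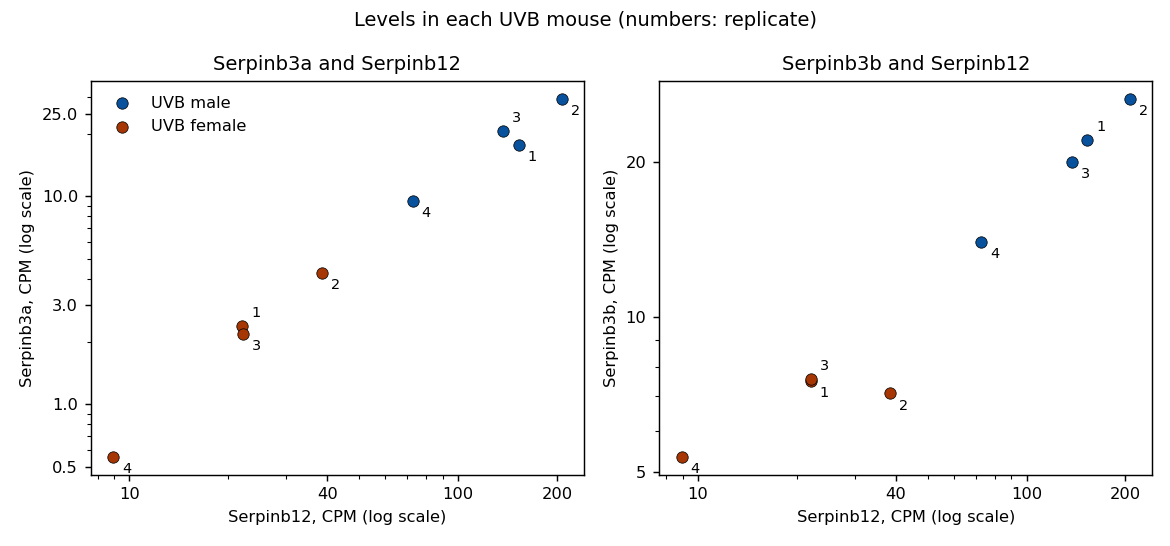
CPM of *Serpinb3a* (left) and *Serpinb3b* (right) against that of *Serpinb12* in the 8 UVB mice, on log axes, with the replicate number beside each point. The mice line up over the whole range for *Serpinb3a*, from 0.557 to 29.4 CPM, and less closely for *Serpinb3b* in females.

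The make-up of the clade changed with these responses. Per length, the 8 members held 37.3% of the summed clade B level in no-UVB males and 57.5% in UVB males, and 30.6% and 36.6% in females. The share of *Serpinb12* went from 0.836% to 10.4% in males and from 0.472% to 1.98% in females. *Serpinb5* alone held 24.1% and 29.5% in males, and 21.3% and 26.0% in females. Among the non-members, the share of *Serpinb6e* went from 17.1% to 6.58% in males and that of *Serpinb6a* from 17.8% to 10.9%, both singled out after their values were seen. In females these shares went from 28.7% to 23.7% and from 13.3% to 11.4%. In CPM *Serpinb6a* did not pass the test in males, at 490 without UVB and 424 after it, with overlap (edgeR adjusted p = 0.104).

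**Figure D4:**
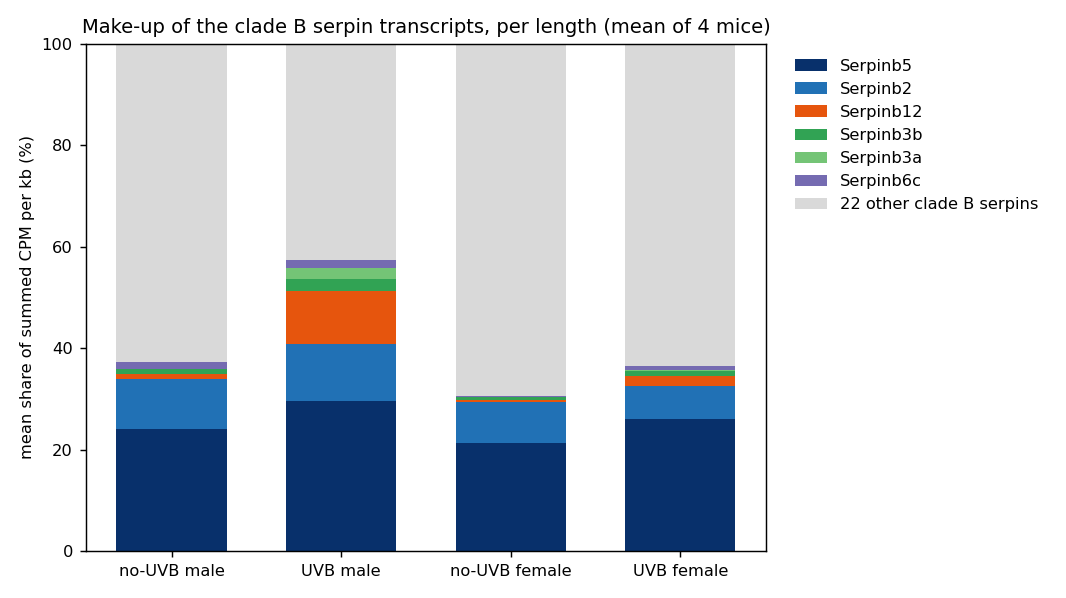
Mean share of the summed CPM per kilobase of all 28 clade B serpins (vertical axis, percent) in each group of 4 mice. The 6 members shown in colour take more of the bar in UVB males than in the other groups, with *Serpinb12* at 10.4% and *Serpinb5* at 29.5%.

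Of the other 20 clade B serpins, 13 passed the filter. In each sex 1 was called higher and 1 lower, the same 2 genes. *Serpinb6d*, another copy of the *Serpinb6* family, went from 0.909 to 1.66 CPM in the 4 no-UVB males to 8.39 to 13.02 CPM in the 4 UVB males, a log2 fold change of 3.16 (SE 0.191, edgeR adjusted p = 8.61e-07). In females it passed the filter only through the UVB mice, so its call there is a description. The no-UVB females had 22, 4, 5 and 1 reads in replicates 1 to 4, so that replicate 1 held most of the control reads, and the UVB females had 128, 104, 53 and 65. *Serpinb9b*, a relative of the granzyme B inhibitor, fell by 1.33 in females (SE 0.223, adjusted p = 0.00382). In males it passed the filter only through the controls, which had 21, 26, 34 and 52 reads against 12, 7, 18 and 10 in the UVB males, and its call there is likewise a description. *Serpinb13*, which lies between *Serpinb12* and *Serpinb3a* and was singled out for that position, had log2 fold changes of -0.09 (SE 0.293) in males and 0.30 (SE 0.297) in females. Its level was near the filter, with group means from 0.515 CPM in no-UVB females to 0.883 in no-UVB males. *Serpinb6e*, the next gene to *Serpinb6c* and chosen after its values were seen, had the opposite sex difference, at 92.7 ± 16.2 CPM in male controls and 160 ± 44.3 in female controls (SD, n = 4). It fell by 0.86 in males (SE 0.173, edgeR adjusted p = 0.00313) and had -0.02 in females, and its interaction, like that of *Serpinb6c*, was lower in males, at -0.85 (SE 0.267, adjusted p = 0.0948). Without UVB, *Serpinb6d* and *Serpinb6a* were, like *Serpinb6c*, higher in males, by 1.91 (edgeR adjusted p = 0.0521) and 0.43 (adjusted p = 0.0386). *Serpinb6d* had 32 reads over the female controls and overlapped between the sexes. *Serpinb6b* had -0.25 (adjusted p = 0.427).

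Proteases of several kinds were examined next, and whether the members inhibit them in this tissue was not tested. Urokinase, *Plau*, singled out as the target of *Serpinb2*, rose by 0.48 on the log2 scale in males (edgeR adjusted p = 0.0775) and had 0.00 in females (adjusted p = 0.993). Of 9 cysteine cathepsins, a family that includes targets of the human counterparts of the *Serpinb3* genes, 2 rose and 3 fell in males, shares near the 29.0% and 30.5% of all genes. None moved past a log2 fold change of 1, and the count covers the whole list, not known targets alone. In females 0 passed edgeR's test, and 0 had an unadjusted p under 0.05. Of 10 serine proteases of leukocytes, 9 were tested, of which 2 rose and 1 fell in males and 2 rose in females. *Gzmc* was called, with 1.52 in males (adjusted p = 0.000228), and none was called in females. Of 7 genes of the membrane serine proteases and their receptor, 4 rose in each sex, where 29.0% of all genes did in males and 12.8% in females, and 1 fell in males. Of these *Tmprss4* was called in males with 1.33 (adjusted p = 1e-06).

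The genes most like the members were searched among 15098 others, against the mean standardised log2 CPM of the 6 members tested. Over the 16 mice the closest were *Tfg* (Pearson r = 0.974), *Slc16a1* (0.974), *Prep* (0.973), *Strap* (0.972) and *Tubb3* (0.967). With the group means taken out they were *D830039M14Rik* (0.865), *Npnt* (0.864), *Stard4* (0.864), *Tnpo3* (0.852) and *Polr3g* (0.845), so the 2 sets had no gene in common. These are the highest of many values and carry no test.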

How the data were processed

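STAR, with no version in the sources used here, served the authors to align reads to GRCm39, and they deposited per mouse a table of whole-number counts per Ensembl gene, not normalized, for both strands together and for each strand. The library kit was directional, and the strand it reports was used, since the other strand held 3.63 to 4.23% of the gene reads of both. Reads mapping to several places are listed at 0. Gene names, positions and exon lengths came from GENCODE M39, which held 54749 of the 55359 identifiers and left 610 unmatched, and the authors' annotation release is not given in the sources used here. Reads outside genes (8.30 to 13.7% of each library), ambiguous reads (1.17 to 1.34%) and unmapped reads stayed out of the library sizes.

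The main fits used edgeR 4.0.16 in R 4.3.3 (filterByExpr, TMM, robust quasi-likelihood fits and Benjamini-Hochberg adjustment over all genes tested), within the 8 mice of each sex for the response to UVB and over all 16 mice for the interaction and for males against females, with no covariate. A call in the last 2 needed an adjusted p under 0.1 alone. The SE of a log2 fold change is its size over the root of the F statistic. Log2 CPM used a prior count of 2. The procedure was tested on simulated data. Libraries of the same group had a chi-square per degree of freedom of 9.54 to 98.3 between their counts, so none was a copy of another. All 16 libraries were used.

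Alternatives were counts of both strands, DESeq2 1.42.0 size factors, its Wald test and shrinkage by apeglm 1.24.0, scaling to epidermal genes, other filters on low counts and thresholds, the replicate number as a block, a single fit of all mice, leaving out each mouse and, chosen after seeing the data, leaving out 2 male controls together. The members, gene lists and tests were chosen with earlier results of these data known. All members are named, as are other clade B serpins called in either sex, up to 4 genes per list with the largest change among those called in males, markers of the tissue, and the 5 genes most like the members by each measure. A result that this rule would have named is not reported here. Marker lists of mast cells, T cells, adipocytes, muscle, anagen hair and endothelium were also counted. Coding sequences were compared with Biopython 1.88 and figures drawn with matplotlib 3.10.9. The single-cell and imaging experiments were not analysed here.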

Additional observations from a re-analysis of the deposited data

Results flagged for a closer look

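In *Serpinb5*, the UVB female replicate 3 stood at 392 CPM, far from the other 3 UVB females at 294 to 310 by Dixon's test. In *Serpinb3d*, the UVB female replicate 2 stood at 0.072 CPM, which is 2 reads, where the other 3 had none. Of 30 groups of 4 mice examined in this way, chance gives about 1 in 20.

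The response of *Serpinb6c* differed between the sexes, with a log2 difference of -1.54 (male minus female) in the interaction test.

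Reads on the strand opposite to *Serpinb12*, which enter only the alternative that counts both strands, numbered 63 over the UVB males and 1 over the no-UVB males. The 63 reads were 0.516% of the reads of both strands of that gene in the UVB males.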

How the results depend on the processing

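The members' values were computed 679 times under the alternatives, and in 645 of these they kept their direction and their side of the threshold. Without the threshold on the fold, 6 members were called in males and 5 in females. In males *Serpinb3a*, *Serpinb3b* and *Serpinb12* were called in every fit in which they were tested. In females *Serpinb3b* was also called with epidermal scaling (1.04), and in 3 of the 8 fits without 1 mouse (up to 1.23), and *Serpinb12* lost its call with epidermal scaling (2.50, adjusted p = 0.192). *Serpinb6c* kept its interaction in all 25 alternatives (-2.05 to -1.42). Members with a larger response in males numbered 2 by DESeq2's Wald test (*Serpinb2* and *Serpinb12*, among 1102 of 17406 genes), 1 with at least 10 counts in every mouse (*Serpinb12*, among 567 of 14986), and 0 to 1 on leaving out a mouse. The 1 was *Serpinb12* without UVB female replicate 2, no-UVB female replicate 1 or UVB male replicate 4, and *Serpinb2* without UVB female replicate 3. Members higher in males without UVB numbered 1 with epidermal scaling (among 186 of 17406 genes), with every gene of at least 1 count (869 of 34670), at an adjusted p under 0.05 (840 of 17406) and without no-UVB male replicates 3 and 4 (1104 of 18088), and 1 to 2 on leaving out a mouse, as *Serpinb3b* lost its call. The values that changed sign were all short of the threshold or became so. *Serpinb2* in females had -0.22 to 0.12 on leaving out a mouse, *Serpinb3a* without UVB -0.053 to 1.68 between the sexes, and *Serpinb5* with epidermal scaling -0.26 in the interaction and -0.15 between the sexes after UVB. The cause of these changes was not tested.

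The labels do not say that a replicate number is shared by mice of 1 litter or day. Same-numbered mice had correlations of their deviations of -0.0732 to 0.0216 in males and -0.115 to 0.217 in females, and 2 of 8 UVB mice correlated best with their own number. With the replicate block, 3 members were called higher in males (among 684 of 16535 genes) and 4 in females (280 of 16883), where *Serpinb3b* passed with 1.04 (adjusted p = 0.0533), and the *Serpinb6c* interaction was -1.53. No filtered fit could test *Serpinb3c* and *Serpinb3d*, which had at most 6 and 10 reads in any mouse. With every gene of at least 1 count, 4 members were called higher in males, among 1124 of 31693 genes.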
